A study of Drosophila melanogaster with 12 samples.

Results

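The comparison described here is the effect of behavioural conditioning on transcript levels in Drosophila melanogaster heads at 24 h minus the same effect at 0 h. For each probe set, the mean of the non-conditioned arrays was subtracted from the mean of the conditioned arrays at each time, and the value at 0 h was then subtracted from the value at 24 h. All 12 of the 12 arrays of the series enter it, as 4 groups of 3 arrays: non-conditioned and conditioned flies, each at 0 h and at 24 h after the procedure. Every array carries total RNA of whole heads, and the labels of all 4 groups hold the word OR, which they do not expand. No genotype beyond that word, no age, no sex and no kind of conditioning is given. The labels call 3 of the conditioned arrays biological duplicates and say nothing of this sort about the others, so the p-values rest on the spread between these arrays, part of which may be technical.

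A difference of differences is positive wherever the conditioning effect was higher at 24 h than at 0 h. For example, conditioned heads can be lower at 0 h and higher at 24 h, or lower at 0 h with no gap later. They can also be lower at both times, by less at 24 h. Each of these courses occurs below, so the effects at the 2 times, or the levels behind them, are given for the genes described. The fly head holds a fat body layer beside brain, eyes and muscle. The fat body stores triglyceride and glycogen, responds to insulin and to adipokinetic hormone, and secretes antimicrobial peptides under the control of the Toll and Imd pathways. Lasting memory in the fly depends on new transcription, with cAMP signalling and the transcription factor CrebB among the best known elements.

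Markers of the tissue named in the labels were present. The neuronal genes elav and nSyb, the glial genes repo and moody, the photoreceptor genes Arr2 and trp and the muscle genes Prm and Mlc2 exceeded an intensity of 100 on every array, as did the fat body markers Lsp2, apolpp and fit. The neuronal marker brp was dimmer and stayed under 100 on every array, at 63.9 to 93.4. Female markers (Yp1, Yp2, Yp3, Vm26Aa and Cp36) summed to 213.5 to 271 in non-conditioned heads at 0 h and 224 to 274 at 24 h. In conditioned heads their sums ran from 205 to 8648 at 0 h and from 288 to 17718 at 24 h. The yolk protein genes Yp1, Yp2 and Yp3 were all high in conditioned replicate 3 at 0 h and in conditioned replicates 1 and 2 at 24 h. The markers Vm26Aa and Cp36 did not follow them and were dim on every array, at 1.37 to 8.93 and 1.31 to 13.2. Male accessory gland markers summed to 24.8 to 632.6 in non-conditioned heads at 0 h, with replicate 3 the high one, and to 13.3 to 32.4 in the other groups. The gut markers Mal-A1 and Jon65Aiv together reached 32.6 to 105.7. Values without the 3 arrays high in yolk transcripts, called the yolk arrays below, are given beside the results they moved most.

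No transcript passed the test of the difference of differences at an adjusted p of 0.05. Among 11261 probe sets tested with limma and Benjamini-Hochberg adjustment, 0 (0.0%) were called, and 10 (0.0888%) had an adjusted p under 0.10, of which 6 had the higher conditioning effect at 24 h. At an unadjusted p under 0.05 there were 810 probe sets (7.19%), 349 with a higher effect at 24 h (3.1%) and 461 with a lower one (4.09%). That split depends on the scaling: centring each array on its median made it 230 and 709, with the median over all probe sets moving from -0.01 to -0.05, and quantile normalization made it 381 and 471. The values below are on the scale of log2(intensity + 16), called log2 for short, which understates differences between dim levels. The median standard error of a difference of differences was 0.13, and the number of arrays limits the precision.

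The conditioning effect was larger in size at 0 h than at 24 h for 58.8% of all probe sets. Among the 349 and 461 probe sets with an unadjusted p under 0.05 this held for 268 (76.8%) and 350 (75.9%). In 303 and 393 of them the effect had opposite signs at the 2 times (86.8% and 85.2%, against 46.2% of all probe sets). These shares describe probe sets chosen by the same contrast, and nothing is read from them. Of all probe sets, 74 (0.657%) had conditioned and non-conditioned arrays without overlap at both times and in opposite order, and 136 (1.21%) without overlap in the same order. At 0 h alone, 17.5% of the probe sets had no overlap between the conditions, and at 24 h 10.5%.

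For each probe set, the group whose mean lay farthest from its nearest neighbour among the other 3 group means was noted. It was the non-conditioned group at 0 h in 39.8% of all probe sets and the conditioned group at 0 h in 24.7%. Among the probe sets with a higher effect at 24 h and an unadjusted p under 0.05 these shares were 47.9% and 35%, and among those with a lower effect 46.6% and 37.1%. The conditioned group at 24 h stood farthest apart in 7.16% and 10.2% of them, against 14.8% of all probe sets.

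**Figure D1:**
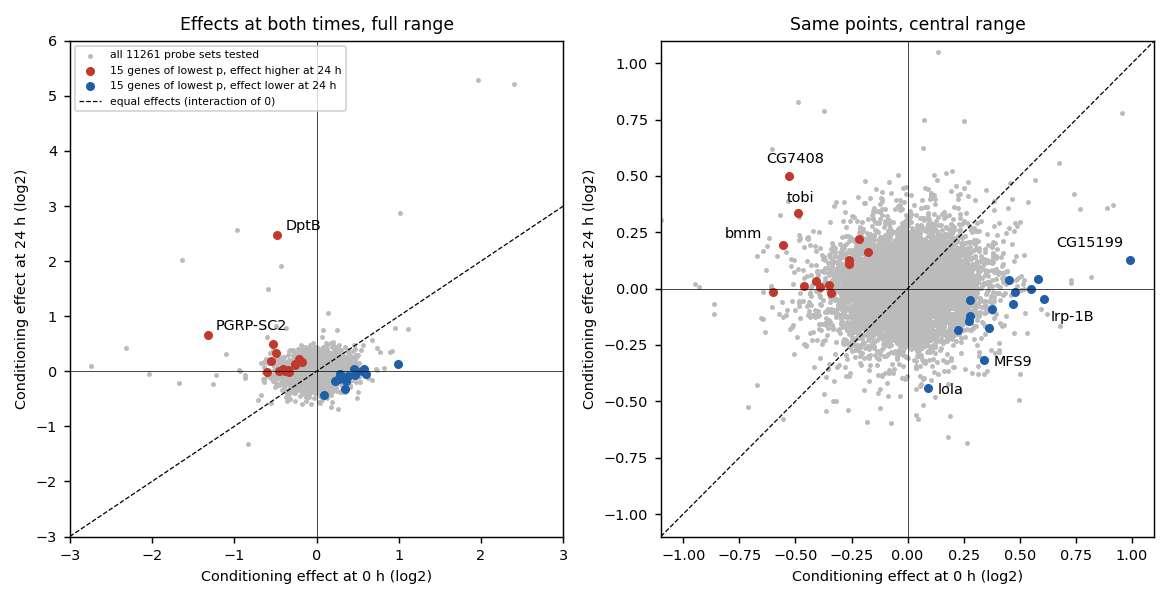
Conditioning effect at 0 h (x axis) and at 24 h (y axis), both in log2 of intensity + 16, for all 11261 probe sets, with the full range on the left and the central range on the right. The dashed line marks equal effects. The 15 genes of lowest p in each direction are coloured, and most of them lie closer to 0 on the 24 h axis than on the 0 h axis.

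The lowest p with a higher effect at 24 h belonged to 2 genes of fuel use. The first was tobi (target of brain insulin), an alpha-glucosidase gene that in the fly answers to insulin and adipokinetic hormone. Non-conditioned heads read 238, 229 and 263 for tobi at 0 h and 446, 369 and 364 at 24 h, and conditioned heads read 195, 162 and 150.2 at 0 h and 487, 534 and 473 at 24 h. The conditioned arrays lay below all non-conditioned arrays at 0 h and above all of them at 24 h. The difference of differences of tobi was 0.83 ± 0.13 (SE, n = 3 arrays per group, 95% interval 0.56 to 1.09, limma adjusted p = 0.0512), made of an effect of -0.49 at 0 h and 0.34 at 24 h. From 0 h to 24 h, tobi was higher by 0.65 in non-conditioned heads and by 1.48 in conditioned heads. In whole-head RNA, fewer cells of a type and less RNA per cell cannot be told apart.

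The second was bmm (brummer), which encodes the triglyceride lipase of fly fat cells. Its intensities were 671, 556 and 682 in non-conditioned heads at 0 h against 399, 398 and 489 in conditioned heads, and 460.5, 357 and 419.6 against 454, 449 and 514 at 24 h. The groups were apart at 0 h and overlapped at 24 h, where bmm was at a lower level in non-conditioned heads than at 0 h. The value was 0.75 ± 0.12 (SE, n = 3 per group, 95% interval 0.49 to 1.00, limma adjusted p = 0.0512), with an effect of -0.55 at 0 h and 0.19 at 24 h. Both tobi and bmm had the same sign in the 8 arrays with a # in the title and in the 4 arrays without, at 0.68 and 1.11 for tobi and 0.75 and 0.75 for bmm. The adjusted p of tobi ran from 0.00828 to 0.859 over the 23 alternative analyses and passed 0.05 in 9 of them, and that of bmm ran from 0.00163 to 0.428 and passed in 7.

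Other genes of fuel handling gave smaller values. In the list of 18 glucosidases, amylases and lipases, 3 members (16.7%) had a higher effect at 24 h at an unadjusted p under 0.05 and 0 a lower one. Over all probe sets these shares were 3.1% and 4.09%. The median of the list was 0.13, against -0.01 over all probe sets. The higher members were tobi, the lipase gene Lip4 at 0.46 ± 0.15 (limma adjusted p = 0.487) and the maltase gene Mal-B2 at 0.22 ± 0.10 (adjusted p = 0.664). The effect of Lip4 was -0.34 at 0 h and 0.12 at 24 h, and that of Mal-B2 was -0.19 and 0.03. Without the yolk arrays the count was 1, the median 0.08 and Mal-B2 was at 0.10, and without non-conditioned replicate 2 at 0 h the count was 5. In the list of 24 lipid storage and mobilization genes, 2 were higher (8.33%, beside 3.1% of all probe sets) and 0 lower (beside 4.09%). They were bmm and AkhR, the receptor of adipokinetic hormone, at 0.28 ± 0.08 (adjusted p = 0.375). AkhR had effects of -0.23 and 0.05, and its value was 0.18 without the yolk arrays. The median of that list was 0.04, and without non-conditioned replicate 2 at 24 h 5 were higher and 1 lower.

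Pepck2, a phosphoenolpyruvate carboxykinase gene of gluconeogenesis, had a value of the other sign. Non-conditioned heads read 349, 489.7 and 315 at 0 h and 665, 821 and 725 at 24 h, against 606, 712 and 449 and then 652, 707 and 705 in conditioned heads. The arrays of the conditions overlapped at both times, and conditioned heads at 0 h were mostly near the levels seen at 24 h. Its difference of differences was -0.69 ± 0.18 (SE, n = 3 per group, limma adjusted p = 0.295). In the list of 20 insulin and nutrient response genes, 1 member was higher (tobi) and 1 lower (Pepck2), each 5.0% of the list. These shares are near the 3.1% and 4.09% of all probe sets.

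CG7408 and alpha-Est2, a carboxylesterase gene, gave the order seen in tobi. CG7408 was dim, at 46.4, 32.2 and 38.8 in non-conditioned and 21.1, 19.9 and 25.1 in conditioned heads at 0 h, then at 29.5, 19.7 and 30.03 against 39.5, 41.2 and 50.4 at 24 h. Conditioned arrays lay below at 0 h and above at 24 h without overlap, and the value was 1.03 ± 0.18 (SE, n = 3 per group, limma adjusted p = 0.0664). For alpha-Est2 the intensities were 219.6, 211 and 206 against 187, 185 and 168 at 0 h, and 211, 202 and 198 against 248, 246 and 226 at 24 h. Its value was 0.44 ± 0.08 (adjusted p = 0.0664), with effects of -0.22 and 0.22 and again no overlap at either time.

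The lowest p in the other direction belonged to Irp-1B, a cytosolic aconitase gene related to iron regulatory proteins. Its intensities were 698, 720.3 and 701 in non-conditioned and 976, 1243 and 1048 in conditioned heads at 0 h, and 833, 888 and 885 against 795, 894 and 838 at 24 h. The gap at 0 h was wide and the arrays at 24 h were interleaved, with non-conditioned heads higher by 0.29 at 24 h than at 0 h and conditioned heads lower by a value of -0.36. The difference of differences was -0.65 ± 0.11 (SE, n = 3 per group, 95% interval -0.88 to -0.43, limma adjusted p = 0.0512), and it was -0.65 in each form of title. Its adjusted p ran from 0.0164 to 0.684 over the 23 alternatives and passed in 7. Of the 13 genes listed for iron handling and aconitases, Irp-1B alone had an unadjusted p under 0.05. That is 7.69% of the list, near the 7.19% of all probe sets in either direction.

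CG15199 showed the widest gap at 0 h among the 15 genes of lowest p with a lower effect at 24 h. It read 39.3, 41.0 and 46.3 in non-conditioned heads at 0 h, while the other 3 groups lay together. Conditioned heads at 0 h read 95.8, 122 and 84.5, and at 24 h non-conditioned heads read 95.7, 95.5 and 85.2 and conditioned heads 94.0, 116 and 96.9. The non-conditioned arrays at 0 h were thus the low ones. Its value was -0.87 ± 0.15 (SE, n = 3 per group, limma adjusted p = 0.0664), from effects of 0.99 and 0.13.

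In CG1628 the conditioned arrays at 0 h were the high ones, at 270.2, 300.4 and 263, against 188, 192 and 208 in non-conditioned heads at 0 h, 224, 220.3 and 228 in non-conditioned heads at 24 h and 229, 214 and 196 in conditioned heads at 24 h. Its value was -0.54 ± 0.10 (SE, n = 3 per group, limma adjusted p = 0.0664). CG10621 followed time in both arms, from 319, 285 and 286 to 588, 621 and 639 without conditioning and from 492, 497 and 376 to 631, 649 and 626 with it. Conditioned heads were thus already higher at 0 h, and the levels met at 24 h, which gave -0.54 ± 0.11 (adjusted p = 0.12).

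The same course, a conditioned level at 0 h between the non-conditioned levels at 0 h and 24 h or close to the latter, was seen in several enzyme genes. Gcat, which encodes glycine C-acetyltransferase of threonine breakdown, read 242, 261 and 245 against 317, 309 and 291 at 0 h and lay at 425 to 457 on all arrays at 24 h, with a value of -0.33 ± 0.07 (SE, n = 3 per group, limma adjusted p = 0.181). Ugt35C1, a UDP-glycosyltransferase gene, had a value of -0.49 ± 0.11 (adjusted p = 0.194), the cathepsin gene CtsL3 of -0.55 ± 0.12 (adjusted p = 0.129) and Ance-5, related to angiotensin converting enzyme, of -0.42 ± 0.09 (adjusted p = 0.143). In all 4 of these genes, conditioned arrays were above non-conditioned arrays without overlap at 0 h and overlapped them at 24 h. The choice by p fixes this in part. The conditions did not overlap at 0 h in 17.5% of all probe sets, in either order.

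**Figure D2:**
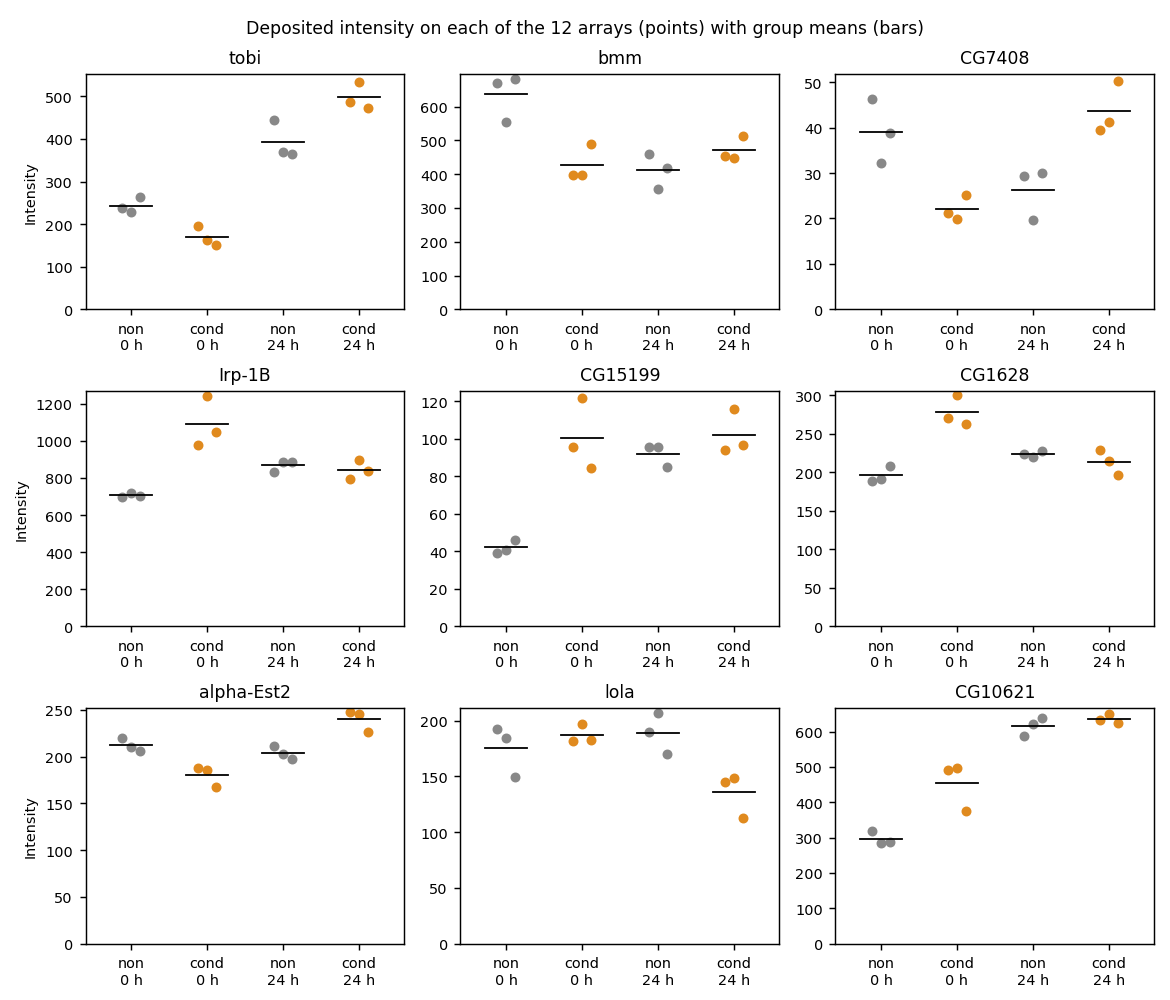
Deposited intensity (y axis, linear, from 0) on each of the 12 arrays for 9 genes, as points, with group means as bars and n = 3 arrays per group. In tobi, CG7408 and alpha-Est2 the order of the conditions turns between the times, while in Irp-1B, CG15199, CG1628 and CG10621 a gap at 0 h is absent at 24 h.

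The 15 genes of lowest p in each direction shared features that the choice by p fixes in part, so they are given as a description. Those with a higher effect at 24 h were tobi, bmm, CG7408, alpha-Est2, CG17646, DptB, CG33110, CG7135, PGRP-SC2, Hml, CG32425, CG14567, Rel, Nadk1a and GILT2. Their values ran from 0.32 to 2.94 and their adjusted p from 0.0512 to 0.199. In all 15, conditioned arrays lay below non-conditioned arrays without overlap at 0 h, and in 6 they lay above them without overlap at 24 h. Over all probe sets, the conditions did not overlap in 17.5% at 0 h and in 10.5% at 24 h, in either order. Among those with a higher effect at 24 h at an unadjusted p under 0.05, the share at 0 h was 61.6%. Among them, Hml encodes a clotting protein of blood cells, Nadk1a a NAD kinase and GILT2 a lysosomal thiol reductase. Without the yolk arrays, CG17646 moved from 0.58 to 0.38 and CG32425 from 0.47 to 0.23.

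Those with a lower effect at 24 h were Irp-1B, CG15199, CG1628, lola, Pde1c, CG9436, CG10621, MFS9, CtsL3, CG9547, CG10657, Ance-5, CG15099, Gcat and Ugt35C1. Their values ran from -0.87 to -0.33 and their adjusted p from 0.0512 to 0.194. In 14 of the 15 the conditions did not overlap at 0 h, and in 5 they did not at 24 h, beside 17.5% and 10.5% of all probe sets. Among all probe sets with a lower effect at an unadjusted p under 0.05, the share at 0 h was 65.3%. All 15 had a higher mean in non-conditioned heads at 24 h than at 0 h, against 8 of the 15 in conditioned heads. MFS9, a transporter gene of the major facilitator superfamily, moved from -0.66 to -0.25 without the yolk arrays.

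**Figure D3:**
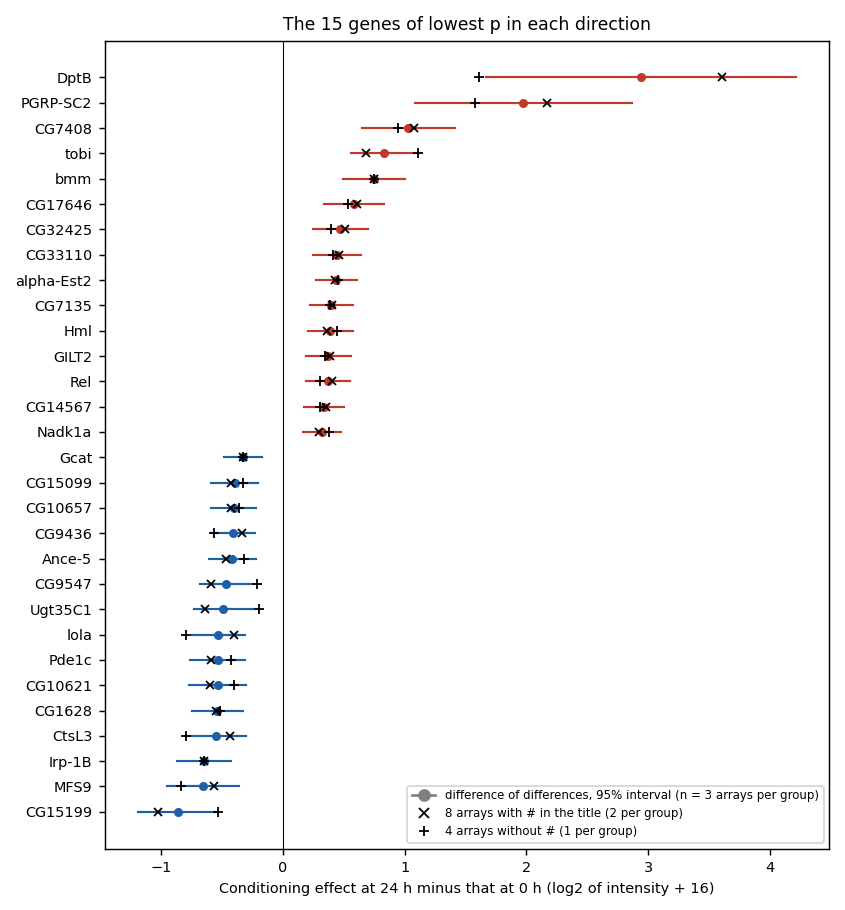
Conditioning effect at 24 h minus that at 0 h (x axis, log2 of intensity + 16) for the 15 genes of lowest p in each direction, as points with 95% intervals from the fit (n = 3 arrays per group). Crosses give the value in the 8 arrays with # in the title and plus signs that in the 4 arrays without, and both lie on the same side of 0 for all 30 genes.

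Immune genes gave some of the largest values, with wide errors. DptB encodes diptericin B, an antimicrobial peptide of the Imd pathway. At 0 h, DptB read 3136, 2456 and 2927 in non-conditioned and 2069, 1825 and 2209.9 in conditioned heads. At 24 h it read 147, 47.5 and 597 in non-conditioned and 609, 1198 and 1399 in conditioned heads. Conditioned arrays lay below at 0 h and above at 24 h, with a narrow margin at 24 h. The value was 2.94 ± 0.60 (SE, n = 3 per group, 95% interval 1.67 to 4.22, limma adjusted p = 0.12), with effects of -0.47 and 2.47. It was 3.61 in the arrays with # in the title and 1.61 in those without, and 2.14 without the yolk arrays. The level of DptB at 24 h differed from that at 0 h by -3.94 without conditioning and by -0.997 with it.

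The gene edin, induced on infection in the fly, had the highest value of any probe set, 3.64 ± 0.88 (SE, n = 3 per group, 95% interval 1.78 to 5.50, limma adjusted p = 0.213). Its arrays spread widely: 914, 84.3 and 518 against 219, 62.3 and 75.4 at 0 h, and 5.36, 6.34 and 43.3 against 42.8, 107 and 239 at 24 h. The conditions overlapped at both times. A further 2 probe sets without a gene name in the annotation used here had values of 3.53 ± 0.58 (adjusted p = 0.0512) and 2.07 ± 0.37 (adjusted p = 0.0664). In the former, conditioned arrays lay below at 0 h and above at 24 h without overlap. In the latter, the conditions overlapped at 0 h, and conditioned arrays lay above without overlap at 24 h. Without a gene name, neither can be placed among the immune genes.

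PGRP-SC2, an amidase that degrades peptidoglycan and damps the Imd pathway, read 216, 58.1 and 128 against 45.7, 35.5 and 33.8 at 0 h, and 34.8, 27.99 and 73.3 against 67.6, 84.2 and 76.0 at 24 h. The conditions were apart at 0 h and overlapped at 24 h. Its value was 1.97 ± 0.42 (SE, n = 3 per group, 95% interval 1.08 to 2.86, limma adjusted p = 0.129), and 1.39 without the yolk arrays. Rel encodes Relish, the NF-kappaB factor of the Imd pathway, and lay at 653, 559 and 629 against 471, 459 and 500.4 at 0 h and at 419, 400.4 and 469 against 432, 409 and 463 at 24 h. For Rel the gap was at 0 h only, and the value was 0.37 ± 0.09 (adjusted p = 0.194).

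As a list, 6 of 12 antimicrobial peptide genes tested (50.0%) had a higher effect at 24 h at an unadjusted p under 0.05 and 0 a lower one, beside 3.1% and 4.09% over all probe sets. They were DptB, edin, Mtk (metchnikowin, 1.16 ± 0.34, limma adjusted p = 0.366), Def (defensin, 1.22, adjusted p = 0.49), CecB (a cecropin, 0.67, adjusted p = 0.653) and the bomanin gene BomT2 (0.34 ± 0.10, adjusted p = 0.366). The median of the 12 was 0.48, and 11 were above 0, beside 47.8% of all probe sets. All 12 had a conditioning effect below 0 at 0 h and 9 had one above 0 at 24 h. The effects were -0.37 and 0.79 for Mtk, -0.60 and 0.62 for Def, -0.19 and 0.48 for CecB and -0.23 and 0.11 for BomT2. The median difference between 24 h and 0 h was -0.80 in non-conditioned and -0.33 in conditioned heads. Without the yolk arrays the count was 2 of 12, the median 0.12 and 6 were above 0, and the value of Mtk was 0.44. Without non-conditioned replicate 3 at 0 h, the array with accessory gland transcripts, the count was 5 and the median 0.40. The median was lowest without non-conditioned replicate 2 at 24 h, at 0.29 with 5 higher, and was 0.32 without conditioned replicate 1 at 24 h, with 6 higher.

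Among 26 genes of immune recognition and of the Toll and Imd pathways, 4 were higher (15.4%, beside 3.1% of all probe sets) and 0 lower (beside 4.09%). They were PGRP-SC2, Rel, pirk at 0.43 ± 0.18 (limma adjusted p = 0.606) and PGRP-SB1 at 0.51 ± 0.22 (adjusted p = 0.639). The effects at 0 h and 24 h were -0.34 and 0.10 for pirk and -0.15 and 0.36 for PGRP-SB1. The gene pirk encodes an inhibitor of the Imd pathway. The median of the 26 was 0.03, and 2 were higher without the yolk arrays, and also without any 1 of conditioned replicate 2 at 0 h, conditioned replicate 3 at 24 h, non-conditioned replicate 1 at 0 h and non-conditioned replicate 2 at 24 h. 

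**Figure D4:**
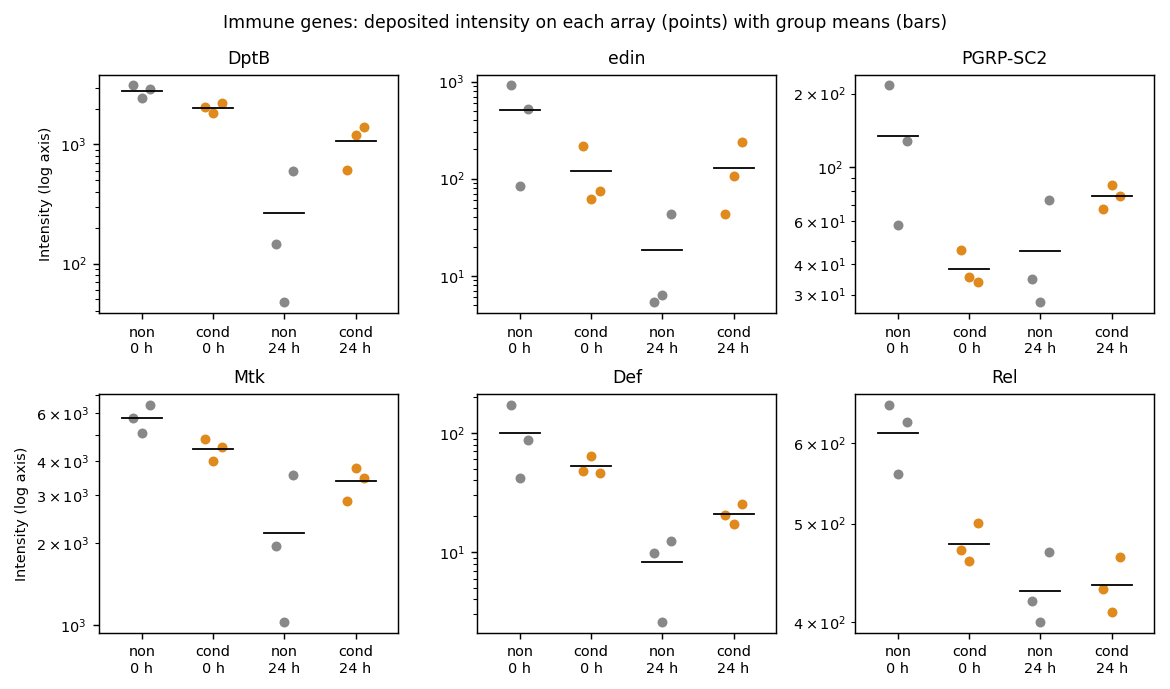
Deposited intensity (y axis, log scale) on each of the 12 arrays for 6 immune genes, as points, with group means as bars (n = 3 arrays per group). In all 6 genes the lowest point is a non-conditioned array at 24 h and the highest is a non-conditioned array at 0 h.

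Of 4 Turandot and JAK/STAT stress genes tested, 2 (50.0%, beside 3.1% of all probe sets) had a higher effect at 24 h at an unadjusted p under 0.05. They were TotC and Diedel, and the other 2 had values just below 0. TotC, a secreted stress peptide, read 2528, 1852 and 964 in non-conditioned and 697, 543 and 342 in conditioned heads at 0 h, and 253, 957 and 252 against 374, 554 and 189 at 24 h. Its value was 1.47 ± 0.43 (SE, n = 3 per group, limma adjusted p = 0.366). Diedel, a secreted protein that in the fly restrains the Imd response, read 751, 186 and 28.8 against 22.8, 5.53 and 12.1 at 0 h and lay between 10.3 and 24.2 on all 6 arrays at 24 h. Its value was 2.83 ± 0.82 (adjusted p = 0.366), and leaving out the yolk arrays made it 4.64. Single arrays decided its call: without non-conditioned replicate 3 at 0 h it was 3.92 (adjusted p = 0.00896), and without non-conditioned replicate 1 at 0 h 1.88 (adjusted p = 0.325). Both TotC and Diedel separated the conditions at 0 h and not at 24 h. Without 1 array, the value of TotC ran from 0.96 to 1.95.

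Genes of protein folding and translocation in the endoplasmic reticulum lay on the other side. This list was put together after the differences of differences had been seen, so its count only describes it: 10 of 40 members (25.0%) had a lower effect at 24 h at an unadjusted p under 0.05 and 0 a higher one, beside 4.09% and 3.1% of all probe sets. The median was -0.12. Hsc70-3, the BiP chaperone, read 1958, 2124 and 2275 against 2651, 2428 and 2727 at 0 h, and 2263, 2789.8 and 2586 against 2414, 2504 and 2439.9 at 24 h. Conditioned arrays were higher without overlap at 0 h and lay inside the range of the non-conditioned arrays at 24 h, and the value was -0.34 ± 0.11 (SE, n = 3 per group, limma adjusted p = 0.423).

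CaBP1, a protein disulphide isomerase, read 305, 355 and 325 against 389.6, 378 and 419.8 at 0 h, and 412, 370.0 and 355 against 339, 335 and 348 at 24 h, and its value was -0.41 ± 0.10 (limma adjusted p = 0.199). The other 8 members were shv, wol, P58IPK, Manf, Gp93, Sec63, Sil1 and Hrd3, among them the co-chaperone P58IPK at -0.39, the secreted factor Manf at -0.32, the HSP90-type chaperone Gp93 at -0.28 and the translocon partner Sec63 at -0.25. In all 10, conditioned arrays were above non-conditioned arrays without overlap at 0 h, with effects of 0.09 to 0.30, while at 24 h the effects ran from -0.16 to 0.02. The choice by p fixes this in part, so it is given as a description. At 0 h the conditions did not overlap in 17.5% of all probe sets. Among all probe sets with a lower effect at 24 h at an unadjusted p under 0.05 that share was 65.3%. Without the yolk arrays 4 of the 40 were under 0.05, with a median of -0.11. In the heat shock list of 10 genes, Hsc70-3 was the only lower member (10.0%, beside 4.09% of all probe sets). Hsp26, a small heat shock protein gene, was the only higher one (10.0%, beside 3.1%). Its value was 0.33 ± 0.13 (adjusted p = 0.587), with effects of -0.12 and 0.21.

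Some genes are measured by several probe sets, and these did not all give the same value. The gene lola encodes many isoforms of a BTB zinc finger factor used in axon guidance, and 15 of its probe sets were tested. One of them read 192, 184 and 149 against 181, 197 and 182 at 0 h, and 189.5, 207 and 170.4 against 145, 149 and 113 at 24 h, so that here the gap was at 24 h, with no overlap. Its value was -0.53 ± 0.10 (SE, n = 3 per group, limma adjusted p = 0.107). Over the 15 probe sets of lola, 8 values were above 0 and 7 below, from -0.53 to 0.43, and 3 had an unadjusted p under 0.05. The brightest had -0.12 ± 0.13.

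Pde1c encodes a calcium-dependent phosphodiesterase that breaks down cyclic nucleotides. One probe set read 87.6, 83.8 and 92.3 against 114, 122 and 116 at 0 h, and 106, 99.4 and 106 against 84.3, 91.7 and 94.3 at 24 h. The conditions did not overlap at either time and their order turned, with a value of -0.54 ± 0.11 (SE, n = 3 per group, limma adjusted p = 0.109). The other 2 probe sets of Pde1c were also below 0, the highest at -0.07. For fru, the sex determination factor of courtship circuits, 6 probe sets ran from -0.28 to 0.62, 4 above 0 and 2 below. The brightest had -0.28 ± 0.15 (limma adjusted p = 0.742), from effects of 0.04 and -0.23, and -0.16 without the yolk arrays. Of the 6, 1 had an unadjusted p under 0.05, the one at 0.62 ± 0.22 (limma adjusted p = 0.518), from effects of -0.28 and 0.34. That probe set was dim, with group means of 23.9 to 34.5.

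Genes known for learning and memory gave small values. Of 28 members of the cAMP and memory list, 1 was higher at an unadjusted p under 0.05 and 0 lower, beside 3.1% and 4.09% of all probe sets, and the median was -0.03. The higher one was rsh (radish), needed for a form of lasting memory, at 0.28 ± 0.13 (limma adjusted p = 0.658), with effects of 0.00 at 0 h and 0.28 at 24 h, and -0.01 in its other probe set. The adenylyl cyclase gene rut had -0.17 ± 0.13 (adjusted p = 0.843), from effects of 0.09 and -0.08. CrebB had -0.14 ± 0.22 (adjusted p = 0.943), from effects of -0.06 and -0.20, and 0.30 without the yolk arrays. CrebB was dim, with group means of 16.8 to 21.6 beside array medians of 20.3 to 22.4. Its other probe set was dimmer, at 11.6 to 16.2, so neither measures CrebB well. The phosphodiesterase gene dnc was the closest of these to 0, with a 95% interval of -0.25 to 0.25. A p that misses the threshold does not show that the effects were alike, and the 95% interval of CrebB ran from -0.61 to 0.32.

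Genes that follow neuronal activity were mixed. Of 18, 4 were higher (22.2%, beside 3.1% of all probe sets) and 0 lower (beside 4.09%), with a median of -0.01. They were CG13868 at 0.48 ± 0.15 (limma adjusted p = 0.397), Arc1 at 0.30 ± 0.09 (adjusted p = 0.423), cbt at 0.28 ± 0.11 (adjusted p = 0.54) and sm at 0.25 ± 0.09 (adjusted p = 0.501). Arc1, a capsid-forming relative of the neuronal Arc gene, read 1434, 1340.03 and 1272 against 1088, 1117 and 1091 at 0 h, and 1089, 1053 and 1084 against 1129, 971 and 1148 at 24 h. The gap of Arc1 was at 0 h and the groups overlapped at 24 h. The effects at 0 h and 24 h were -0.26 and 0.23 for CG13868, -0.41 and -0.13 for cbt and -0.22 and 0.02 for sm. The activity marker Hr38, a nuclear receptor gene, had -0.17 ± 0.23 (adjusted p = 0.929), from effects of 0.09 and -0.08. Without the yolk arrays, CG13868 was at 0.13, cbt at 0.45, sm at 0.43 and Hr38 at -0.29. Among 25 neuropeptide precursors, 2 were higher (8.0%, beside 3.1% of all probe sets) and 0 lower (beside 4.09%). They were AstC at 0.26 ± 0.09 (adjusted p = 0.518) and Crz at 0.30 ± 0.12 (adjusted p = 0.618). AstC had effects of -0.23 and 0.03 and Crz of -0.13 and 0.16. In the fit lacking the yolk arrays 0 neuropeptide genes were higher and 1 was lower.

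Of 22 clock genes and outputs, 4 were higher (18.2%, beside 3.1% of all probe sets) and 1 lower (4.55%, beside 4.09%), with a median of 0.00. Cipc, which encodes an inhibitor of the CLOCK factor, read 494, 546 and 607 against 367, 391 and 446 at 0 h, and 558, 456 and 468 against 473, 468 and 517 at 24 h. Conditioned arrays were below at 0 h and overlapped at 24 h, with a value of 0.42 ± 0.11 (SE, n = 3 per group, limma adjusted p = 0.312). At 0 h and 24 h the effects were -0.49 and -0.21 for the repressor gene cwo, -0.30 and -0.07 for vri, -0.42 and -0.12 for Cyp18a1 and 0.09 and -0.12 for the photoreceptor gene cry. Their differences of differences were as follows: cwo had 0.28 ± 0.10 (adjusted p = 0.54), vri 0.22 ± 0.09 (adjusted p = 0.59), Cyp18a1 0.29 ± 0.11 (adjusted p = 0.54) and cry -0.20 (adjusted p = 0.683). The core genes per and tim had -0.13 ± 0.14 (adjusted p = 0.901) and -0.03 ± 0.09 (adjusted p = 0.978), with effects of -0.17 and -0.30 for per and -0.22 and -0.25 for tim. Without the yolk arrays 1 clock gene was higher and 1 lower, and the values of per, tim, Cyp18a1 and vri were 0.04, 0.06, 0.19 and -0.01. Without non-conditioned replicate 2 at 24 h 1 was higher and 1 lower as well.

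The 69 cytochrome P450 genes, which oxidise hormones and foreign compounds, had 3 members higher (4.35%) and 7 lower (10.1%), beside 3.1% and 4.09% of all probe sets, and 1 and 4 without the yolk arrays. The share higher is near that of all probe sets. Cyp6w1 read 1958, 1938 and 1912 against 2421, 2659 and 2349 at 0 h and lay between 1822 and 1949 on all arrays at 24 h, which gave -0.32 ± 0.08 (SE, n = 3 per group, limma adjusted p = 0.286). The higher members were Cyp12e1 at 0.33 (effects of -0.10 and 0.23), Cyp18a1 at 0.29 and Cyp317a1 at 0.39 (effects of -0.26 and 0.12). In the ecdysone response list of 25 genes, 3 were higher and 4 lower, against 2 and 1 without the yolk arrays. With all arrays, both shares of this list lay above those of all probe sets, 3.1% higher and 4.09% lower. The higher ones were EcR, ftz-f1 and Cyp18a1, and the lower ones MsrA, Jhe, Hr96 and Cth. The receptor gene EcR had 0.49 ± 0.18 (adjusted p = 0.54), from effects of -0.15 and 0.34, while its value was 0.08 when the yolk arrays were left out. MsrA, a methionine sulphoxide reductase that ecdysone induces in the fly, had -0.42 ± 0.11 (adjusted p = 0.287), from effects of 0.35 and -0.08.

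Values of tissue marker lists stand beside these. Over all probe sets, 3.1% were higher and 4.09% lower at an unadjusted p under 0.05. The 13 fat body markers had 1 member higher (7.69%), bmm, and 2 lower (15.4%). The lower ones were the lipid transfer particle gene Apoltp at -0.40 ± 0.10 (limma adjusted p = 0.199) and smp-30, of the regucalcin family, at -0.34 ± 0.10 (adjusted p = 0.366). Apoltp had effects of 0.30 and -0.11 and smp-30 of 0.30 and -0.03. Their values without the yolk arrays were -0.25 and -0.56, and a second probe set of smp-30 had 0.10. The median of the 13 was 0.08, and without the yolk arrays 2 were higher and 3 lower. Yp1 had 3.32 ± 2.58 (adjusted p = 0.85), with 8.37 in the arrays with # in the title and -6.78 in those without, and 1.39 without the yolk arrays. Of the 7 yolk and female transcripts, 0 had an unadjusted p under 0.05. The list of 6 male accessory gland transcripts had 1 member higher (16.7%), Acp65Aa at 0.57 ± 0.21 (adjusted p = 0.537), which encodes an adult cuticle protein in spite of its name. It had effects of -0.39 and 0.18, and its value was 0.96 without the yolk arrays. The part of fat body, female or accessory gland RNA in the results above was not tested.

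Of 32 pan-neuronal genes, 1 was higher (3.1%) and 4 lower (12.5%), beside 3.1% and 4.09% of all probe sets. Without conditioned replicate 2 at 24 h alone the counts were 0 and 0. The members under 0.05 were the complexin gene cpx at 0.34 ± 0.15 (limma adjusted p = 0.632), the active zone gene Rim at -0.30 ± 0.12 (adjusted p = 0.615) and the acetylcholine receptor genes nAChRalpha7 and nAChRalpha5 at -0.28 and -0.28, and VAChT, the vesicular transporter of acetylcholine, at -0.22. The effects at 0 h and 24 h were -0.24 and 0.10 for cpx and 0.11 and -0.19 for Rim. A second probe set of cpx had 0.01, and without the yolk arrays cpx was at 0.09 and Rim at -0.16. The muscle list of 23 genes, which also holds the integrin gene mys, had 0 higher and 2 lower (8.70%, Obsc at -0.28 and mys at -0.34). Glial genes had 1 and 0 of 21 (4.76%, Tret1-1 at 0.23) and odorant binding proteins 1 and 0 of 27 (3.70%, Obp28a at 0.26). The glial and odorant binding shares are near the 3.1% of all probe sets. Effects at 0 h and 24 h were 0.11 and -0.17 for Obsc, 0.03 and -0.32 for mys, -0.23 and -0.01 for Tret1-1 and -0.35 and -0.09 for Obp28a. The values of mys, Tret1-1 and Obp28a without the yolk arrays were -0.02, 0.08 and 0.13, and a second probe set of mys had 0.07. Phototransduction genes had 0 and 0 of 23 and oxidative phosphorylation genes 0 and 0 of 55. Of 31 cytosolic ribosomal protein genes 0 passed in either direction and 30 were above 0, with a median of 0.07. Under quantile normalization 15 of the 31 were above 0 and the median was -0.01, and after median centring 22 were above 0. Without non-conditioned replicate 1 at 24 h 7 were above 0 and the median was -0.05, and without non-conditioned replicate 2 at 24 h 12 of them were higher and the median was 0.18. Their direction thus depends on the scaling and on single arrays.

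**Figure D5:**
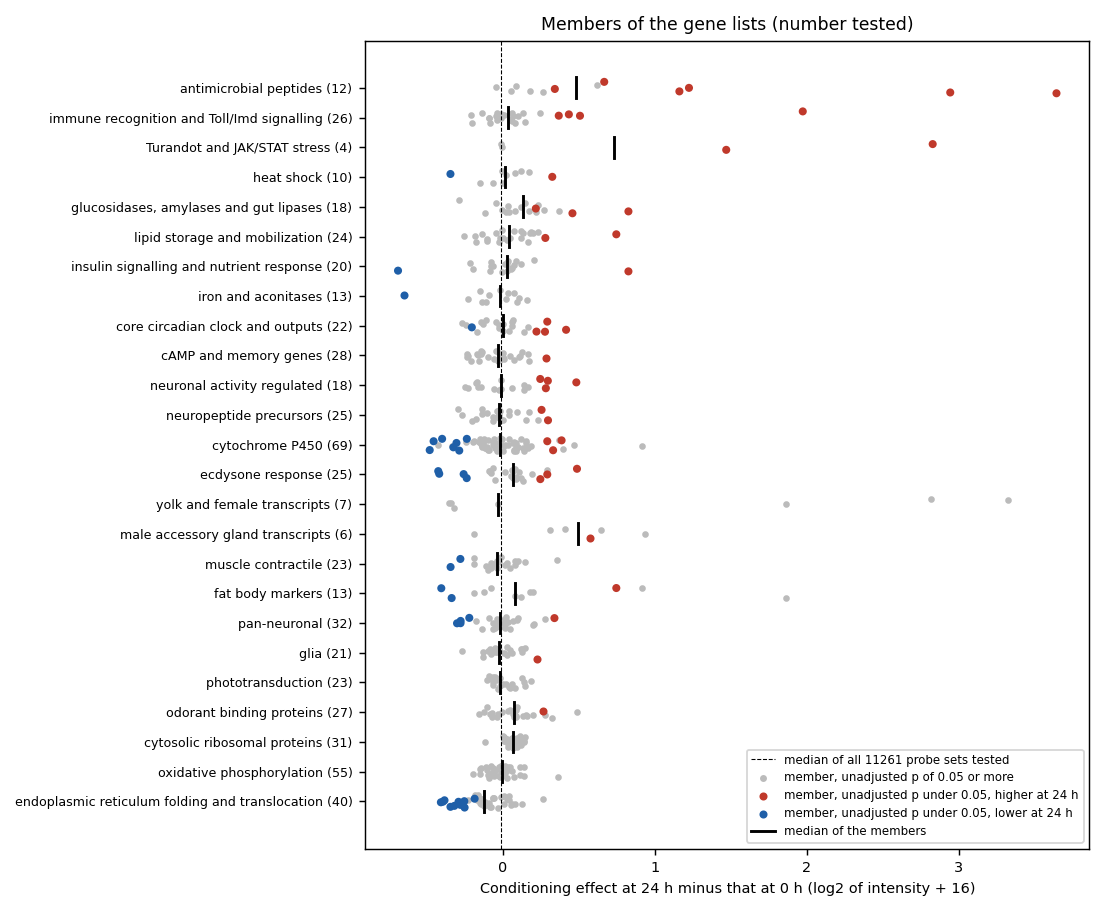
Conditioning effect at 24 h minus that at 0 h (x axis, log2 of intensity + 16) for each tested member of 25 gene lists (rows, with the number tested), coloured where the unadjusted p was under 0.05. Black bars mark list medians and the dashed line the median of all 11261 probe sets. Antimicrobial peptide genes reach 3.64 on the right, and the members coloured for the endoplasmic reticulum list all lie below 0.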

How the data were processed

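The deposited table holds 1 linear intensity per probe set for each of 12 Affymetrix arrays. The labels and the file name neither the authors' program nor their background correction. The mean after trimming 2% was 149 to 150 on every array and medians lay between 20.3 and 22.4, so the deposited intensities had been scaled to a common level. Control probe sets (183) were removed. Values were used as log2(intensity + 16). Array medians ranged over 0.082, under the limit of 0.2 for quantile normalization. The upper 60% of 18769 probe sets by mean were tested. limma 3.58.1 in R 4.3.3 was fitted with 4 group means, a term for the title form (8 arrays with #, 4 without) and eBayes with a trend, two-sided. Residual degrees of freedom were 7. Intervals are 95%.

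Symbols came from the platform annotation, updated through RefSeq gene tables. One symbol was held by 13647 probe sets, several by 402 and none by 4720. Members and lists were chosen with earlier results of these data known. Named genes are the 15 of lowest p per direction, up to 4 per list with unadjusted p under 0.05 (brightest probe set per gene), and 18 fixed genes. CecB, Def, cry, VAChT, Cyp317a1, ftz-f1, Hr96, Cth, the unnamed probe sets and the endoplasmic reticulum members were added after their values were seen. The fit was tested on simulated data. Alternatives covered the title term, # arrays only, normalization, offset, filter, trend, weights and arrays left out.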

Additional observations from a re-analysis of the deposited data

How the results depend on the processing

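The count of 0 transcripts called with limma (810 at an unadjusted p under 0.05) was also 0 with an offset of 1, with the upper 40% of probe sets and without the eBayes trend. It was 10 at an adjusted p of 0.10, 2 without the title-form term, 6 with the # arrays alone (Yp1, Yp2, Yp3, DptB and 2 unnamed probe sets), 3 after quantile normalization, 6 after median centring, 4 with an offset of 64, 1 without a filter, 21 with array weights and 3 without the conditioned arrays with yolk transcripts. Leaving out 1 array at a time gave 0 to 8 calls, with 8 without non-conditioned replicate 3 at 0 h, 6 without non-conditioned replicate 1 at 24 h, 4 without conditioned replicate 3 at 0 h, 3 without non-conditioned replicate 2 at 0 h, 2 without each of conditioned replicate 1 at 0 h, conditioned replicate 1 at 24 h and non-conditioned replicate 3 at 24 h, and 0 without any of the other 5. The cause was not tested. A fit without the arrays with yolk transcripts holds 2 conditioned arrays at 0 h and 1 at 24 h, which is assumed to vary like the other groups.

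Of 81 named probe sets, 21 passed in at least 1 of up to 23 alternatives and 75 kept 1 sign. The other 6 changed sign. For dnc the value was 0.0287 with # arrays, 0.0133 after quantile normalization, 0.00012 with an offset of 1, 0.0314 with array weights, 0.145 without the arrays with yolk transcripts and -0.0776 to 0.0658 with 1 array left out. For Hr38 it was 0.0012 with array weights and -0.343 to 0.0101 with 1 array left out. CrebB had 0.0375 with array weights and 0.304 without the arrays with yolk transcripts, and tim had 0.0103 and 0.0598 and -0.0919 to 0.0435 with 1 array left out. Without the arrays with yolk transcripts vri had -0.0052 and per 0.0446. The cause was not tested. No paired analysis was possible because the replicate numbers follow the order of the series and pair no arrays. Depth is limited by 3 arrays per group, and differences among dim probe sets depend on the offset.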
